A study of Mus musculus with 6 samples.

Results

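The genes described here encode the nuclear subunits of the mitochondrial respiratory chain and of ATP synthase. They were chosen by symbol: names that start with Nduf, Uqcr, Cox4 to Cox8 or Atp5, together with Sdha, Sdhb, Sdhc, Sdhd and Cycs. The rule found 93 of the 23283 symbols in the files. Of these, 85 averaged at least 1 FPKM over the 6 libraries and were tested, out of 10106 genes tested in all; the other 8 were under that level. FPKM is the number of sequenced fragments scaled by the length of the transcript and by the depth of the library. Eosinophils from the lamina propria of the small intestine were cultured for 4 hours with GM-CSF at 10 ng/ml (3 libraries) or for 4 hours without it, called untreated here (3 libraries). All cells came from BALB/c wild-type mice. GM-CSF is a cytokine that prolongs the survival of eosinophils and activates them. No label tells whether separate animals supplied the cultures of a group, so p-values reflect the spread among these cultures alone, which may be technical.

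The respiratory chain sits in the inner mitochondrial membrane. Complex I takes electrons from NADH and complex II takes them from succinate, coenzyme Q carries them to complex III, cytochrome c carries them on to complex IV, and complex IV passes them to oxygen. Complexes I, III and IV pump protons as they work, and ATP synthase uses the returning protons to make ATP. Neutrophils, the related granulocytes, are known to rely mostly on glycolysis for ATP. The subunits encoded by the mitochondrial genome had no symbol among those used and are not analysed here.

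The files gave between 0.820 and 1.32 gigabases of mapped sequence per GM-CSF library and between 0.917 and 0.974 per untreated library. At 100 FPKM a transcript of 500 nt rested on about 1051 to 1698 reads, estimated from the deposited coverage, a depth that speaks to counting error only. That estimate took reads to be 39 nt long. The length was read within a range of values set in advance, so the read numbers are only a rough guide. Libraries correlated with each other at r = 0.928 to 0.957 across genes. Eosinophil markers were present: Siglec5, an eosinophil surface lectin, averaged 170.4 ± 8.93 FPKM with GM-CSF and 170.1 ± 11.1 FPKM untreated, and Ccr3, the eotaxin receptor, averaged 251.3 ± 22.8 FPKM with GM-CSF and 289.0 ± 24.5 FPKM untreated (SD, n = 3 each).

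Respiratory chain transcripts were abundant in both groups. The median tested member averaged 54.4 FPKM over the 6 libraries, against 10.9 FPKM for all tested genes. All 93 symbols together held 1.54% ± 0.017 of the summed FPKM of a GM-CSF library and 1.53% ± 0.038 of an untreated library (SD, n = 3 each). Most of that signal came from complex IV and ATP synthase. Among the tested members of complex IV the median level was 183.3 FPKM, in ATP synthase 109.2 FPKM, in complex III 79.6 FPKM, in complex II 40.6 FPKM and in complex I 37.4 FPKM. The complex I assembly factors, which are not part of the finished enzyme, had a median of 4.90 FPKM. FPKM is a value per length, so these levels can be set beside each other. The tested members' transcripts had a median of 681 nt, against 2579.5 nt for all tested genes.

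**Figure D1:**
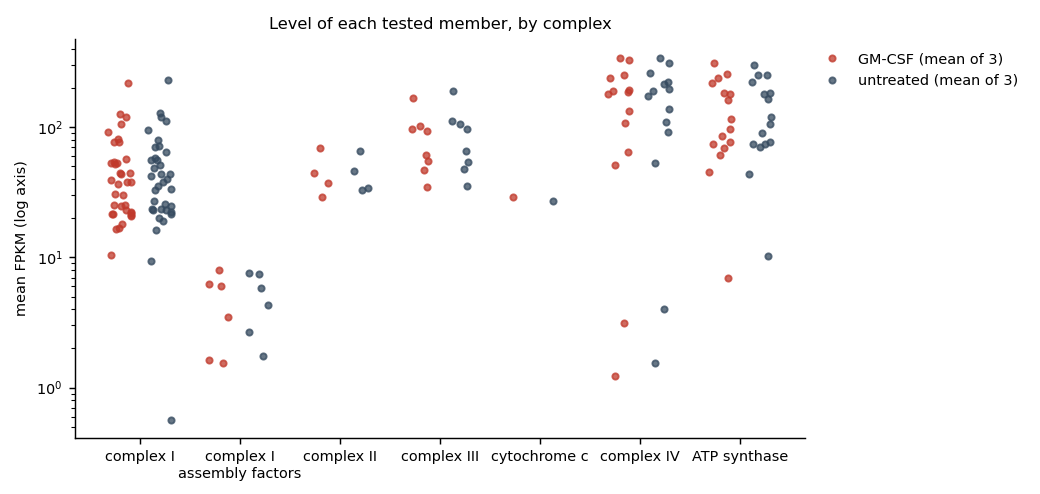
Mean FPKM of each of the 85 tested members (log axis) by complex, with GM-CSF means in red at the left and untreated means in blue at the right of each complex. The most abundant members, in complex IV and ATP synthase, lie above 300 FPKM, the assembly factors lie under 10 FPKM, and the lone complex I point near 0.569 FPKM is the untreated mean of Ndufs5.

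Few members passed the test between the cultures. With GM-CSF 7 of the 85 tested members fell and 0 rose past an adjusted p of 0.05 (limma on log2(FPKM + 1), Benjamini-Hochberg over all 10106 genes), which is 8.24% of the members. Over all tested genes the same call was made for 21.9%, with 7.68% higher and 14.2% lower. At an unadjusted p under 0.05 in the same fit there were 2 members higher and 14 lower. Over all 10106 genes that p gave 1136 higher and 2341 lower. The log2 fold change, GM-CSF over untreated, had a median of -0.05 over the members and -0.05 over all genes. It was below 0 for 58 members and above 0 for 27, and over all 10106 genes below 0 for 6322 and above 0 for 3784. Each fold change is on the log2(FPKM + 1) scale, where the added 1 shrinks the change of a gene with low FPKM.

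In 18 members the 3 GM-CSF libraries lay wholly above or wholly below the 3 untreated ones, in 2 of them above and in 16 below. That is 21.2% of the members, against 39.2% of all tested genes (13.2% above and 26.0% below). The values also bounded the changes: for 73 of the 85 members the 95% interval of the log2 fold change lay within 0.5 of 0, and for 38 within 0.25. Over all 10106 genes these counts were 7302 (72.3%) and 2595. The members' median standard error was 0.07, against 0.08 over all genes.

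The number of members that fell moved with the libraries in the fit, as did the number over all genes. Leaving out 1 library at a time gave between 4 and 7 lower members and between 0 and 2 higher. Over all tested genes those fits gave 885 to 1126 lower and 625 to 712 higher, against 1436 and 776 with all 6 libraries. Among members the lowest count, 4, came without untreated replicate 3. The scaling of the libraries also moved the members' count. With median-of-ratios factors 3 members were lower and 2 higher. The median log2 fold change was then 0.02 over the members and 0.01 over all genes. With that scaling 1078 genes of all those tested were higher and 968 lower, against 776 higher and 1436 lower as deposited. Cox7a2l, Atp5sl and Ndufaf5 were lower under each alternative in which they were tested.

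**Figure D2:**
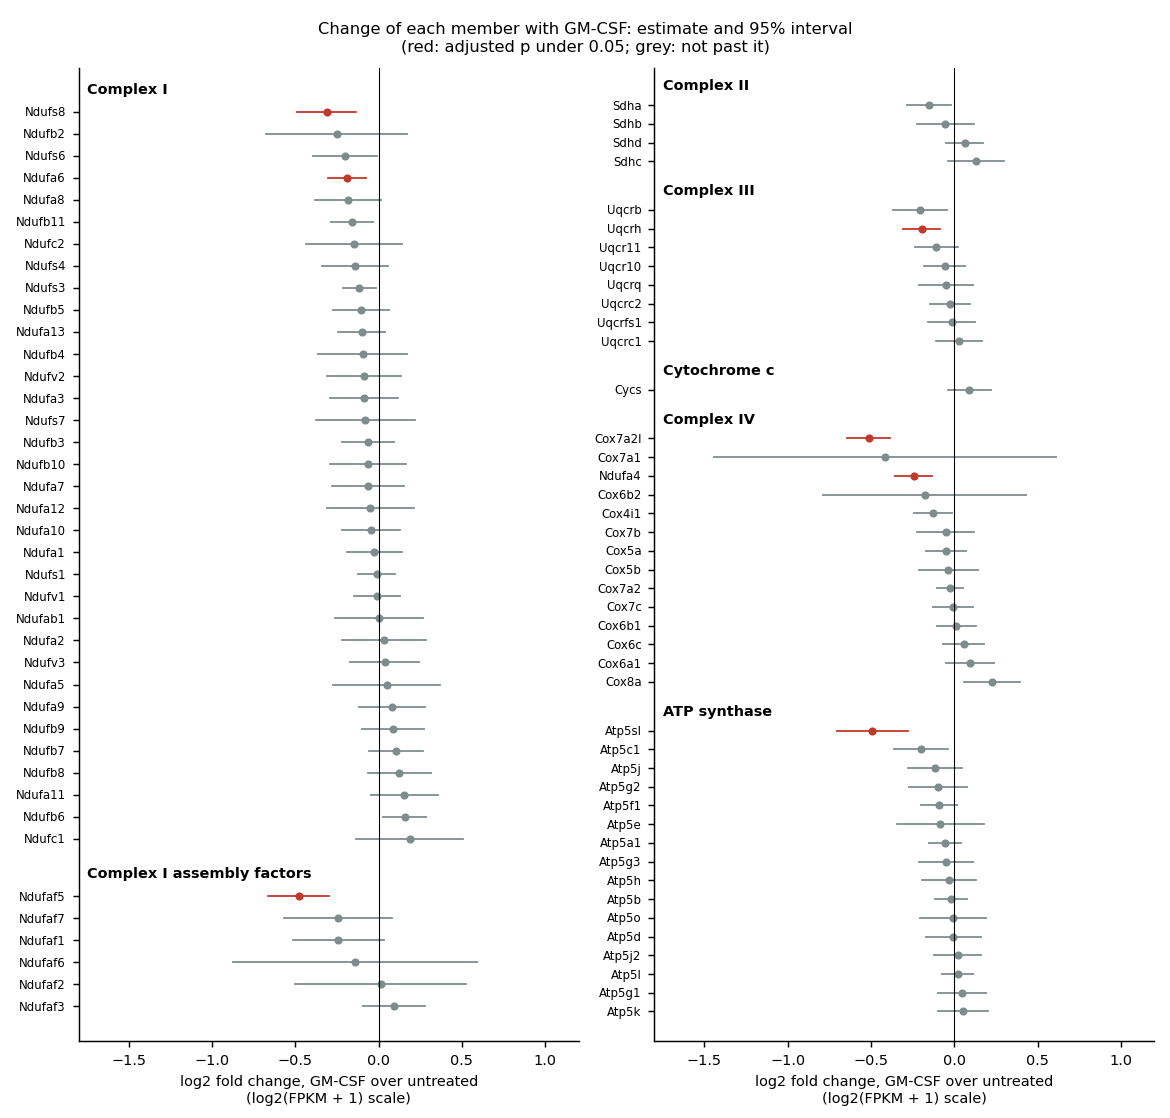
Log2 fold change, GM-CSF over untreated, of the tested members shown, each with its 95% interval, grouped by complex and sorted within it; red marks an adjusted p under 0.05. Ndufs5 is left out because its estimate ran from near 0 to 42.4 FPKM between libraries. The red points all lie left of 0, with Cox7a2l at -0.51 the lowest on this log2(FPKM + 1) scale. The other intervals are mostly narrow and cross 0.

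Markers of other cells moved between the groups. Over all tested genes 7.68% rose and 14.2% fell by limma. In bulk libraries fewer cells of a type and less RNA per cell cannot be told apart. Each of the 5 B and plasma cell markers that could be tested was lower, with a sum of 16.7 to 17.7 FPKM with GM-CSF and 31.0 to 38.5 FPKM untreated. Of the T cell markers 4 of 5 fell (sums of 15.8 to 18.6 FPKM with GM-CSF and 28.7 to 30.1 FPKM untreated). Of the epithelial markers 5 of 11 fell (58.5 to 73.9 FPKM with GM-CSF and 93.3 to 100.5 FPKM untreated), with Muc2 and Cdx2 near 0. Of the macrophage and dendritic cell markers 3 of 5 fell, while their sum was 535.4 to 601.3 FPKM with GM-CSF and 479.9 to 538.3 FPKM untreated. The most abundant of them averaged 397.1 FPKM over the 6 libraries, so 1 gene set most of that sum. Of 4 neutrophil markers 2 fell and 1 rose, with Camp and Elane listed at 0 in all libraries. Their sum was 1141 to 1168 FPKM with GM-CSF and 1365 to 1482 FPKM untreated. Here too 1 gene, with a mean of 1171 FPKM over the 6 libraries, set most of the sum. Of 3 mast cell markers 1 fell, with Tpsb2 at 0 (7.99 to 11.1 FPKM with GM-CSF and 8.17 to 20.4 FPKM untreated). Of 2 stromal and endothelial markers 1 rose (Pdgfra) and 1 fell (Pecam1), with sums of 117.7 to 132.5 FPKM with GM-CSF and 151.8 to 168.8 FPKM untreated. The more abundant of the 2 averaged 135.7 FPKM over the 6 libraries and the other 5.89 FPKM, so 1 gene set most of this sum. The eosinophil markers themselves gave 1 rise and 4 falls of 9, with a summed level of 1176 to 1280 FPKM with GM-CSF and 1594 to 1757 FPKM untreated. The part of these shifts in the falls of Cox7a2l, Atp5sl, Ndufaf5 and the other members was not tested.

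Cox7a2l showed the lowest log2 fold change of the members on the log2(FPKM + 1) scale. By ratio of means the less abundant Ndufaf5 (0.611) and Atp5sl (0.686) were lower than Cox7a2l (0.696). Cox7a2l encodes a relative of the complex IV subunit Cox7a that joins complexes III and IV into a supercomplex. Its level was 62.3, 64.6 and 65.6 FPKM in the GM-CSF libraries and 86.1, 93.2 and 97.0 FPKM in the untreated libraries. The groups were far apart, with a ratio of means of 0.696. The log2 fold change was -0.51 (SE 0.05, adjusted p = 0.00109, limma with Benjamini-Hochberg). Nearly all of its level came from 1 of its 2 transcripts, of 1080 nt, at 61.5 to 64.6 FPKM with GM-CSF and 83.5 to 96.7 FPKM untreated. The paralogs that occupy the Cox7a place in the enzyme gave other values. Cox7a2 had 107.6, 107.4 and 108.6 FPKM with GM-CSF and 110.5, 110.4 and 109.0 FPKM untreated. The 2 groups of Cox7a2 were separate but close, and the interval of its log2 fold change was -0.10 to 0.05 (adjusted p = 0.605). Cox7a1, the form of heart and skeletal muscle, was low and variable at 1.73, 1.49 and 6.16 FPKM with GM-CSF and 3.97, 5.41 and 2.63 FPKM untreated.

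Ndufa4, once counted with complex I and now known as a complex IV subunit, also fell. It had 191.3, 174.9 and 192.1 FPKM with GM-CSF and 221.2, 217.6 and 222.5 FPKM untreated. The groups did not overlap, and the log2 fold change was -0.24 (SE 0.05, adjusted p = 0.0121). Its call was lost with median-of-ratios factors and with libraries rescaled to the same FPKM sum. These were the 2 lower members among the 14 tested members of complex IV.

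Most complex IV subunits did not pass the test. Cox6b1, which sits on the intermembrane side, was the most abundant member at 342.2 ± 13.2 FPKM with GM-CSF and 339.4 ± 15.5 FPKM untreated. Cox6a1 averaged 329.3 FPKM with GM-CSF and 308.0 FPKM untreated (log2 fold change 0.09, interval -0.05 to 0.24). Cox4i1, the regulatory subunit that binds ATP, had 228.5, 241.8 and 247.7 FPKM with GM-CSF and 272.7, 260.2 and 253.0 FPKM untreated. All 3 GM-CSF libraries of Cox4i1 were below the untreated ones, but the difference did not pass (-0.13, interval -0.24 to -0.02, adjusted p = 0.108).

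Cox8a, a small subunit, was the member closest to a rise. Its values were 259.8, 262.5 and 232.6 FPKM with GM-CSF and 210.4, 232.1 and 202.8 FPKM untreated. The groups nearly met without overlapping, and the log2 fold change of 0.23 (SE 0.07, adjusted p = 0.0654) missed the threshold. It passed in 7 of 17 alternative analyses, among them the other scalings and the fits without GM-CSF replicate 3 (adjusted p = 0.0413) or untreated replicate 2 (adjusted p = 0.0492).

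Tissue-restricted forms of complex IV were listed at or near 0. A listed 0 is weak ground for absence, since genes that every cell uses, such as Ndufs5, were also listed near 0 in some libraries. Cox8b and Cox8c were listed at 0 in all 6 libraries. Cox6a2, Cox7b2 and Ndufa4l2 were listed at 0 in most libraries. Cox4i2, the form of Cox4 known from lung, was listed at 0.077, 0.207 and 0.167 FPKM with GM-CSF and at 0 in each untreated library. These values lie below the level that was tested; with no filter on the mean, Cox4i2 was called higher. Cox6b2, known from testis, was the lowest member that passed at a mean of 1.39 FPKM over all libraries.

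Within complex I, 2 of 36 tested members fell. The catalytic core counts 7 of them and the accessory subunits 29. Ndufs8, a core subunit with iron-sulphur clusters on the path of electrons to coenzyme Q, had 33.1, 30.03 and 27.6 FPKM with GM-CSF and 38.1, 35.8 and 39.3 FPKM untreated. Its GM-CSF libraries all lay lower (log2 fold change -0.31, SE 0.07, adjusted p = 0.0264). Ndufa6, an accessory subunit of the LYR family, had 107.4, 103.5 and 104.5 FPKM with GM-CSF and 113.6, 120.6 and 126.3 FPKM untreated, again without overlap (-0.19, SE 0.05, adjusted p = 0.0337). Both calls were lost in several fits without 1 library. They were also lost with median-of-ratios factors and with libraries rescaled to the same FPKM sum. Where leaving out 1 library lost the call, the log2 fold change was -0.20 to -0.15 for Ndufa6 and -0.31 to -0.25 for Ndufs8. Ndufa6 lost its call in 11 of 17 alternatives, among them every fit that left out a library other than untreated replicate 1, with an adjusted p of up to 0.101. Ndufs8 lost its call in 8, among them the fits without GM-CSF replicates 2 or 3 or untreated replicates 1 or 3, with an adjusted p of up to 0.0849.

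Ndufs8 was the 1 core subunit of complex I that passed. Ndufv1, which binds NADH, had 22.8, 21.6 and 24.7 FPKM with GM-CSF and 23.1, 23.1 and 23.3 FPKM untreated. Ndufs1 summed to 25.1 to 25.7 FPKM with GM-CSF and 24.8 to 26.9 FPKM untreated, and its 4 listed transcripts traded places between libraries, so only the sum is used. The groups of both overlapped. Among accessory subunits Ndufa3 was the most abundant at 217.2 FPKM with GM-CSF and 231.9 FPKM untreated. Ndufa11 was the least abundant of those with a steady level, at 10.5 FPKM with GM-CSF and 9.32 FPKM untreated. Ndufb6, a membrane subunit, had 56.2, 55.7 and 49.9 FPKM with GM-CSF and 47.5, 48.1 and 49.2 FPKM untreated, above in every library but short of the threshold (0.16, adjusted p = 0.0967). Ndufv3, whose gene makes a short and a long form, was listed mostly as its short transcript, at 47.0, 37.2 and 39.5 FPKM with GM-CSF and 39.1, 40.4 and 41.8 FPKM untreated. The long transcript had 3.69, 2.83 and 3.92 FPKM with GM-CSF and 3.11, 2.79 and 3.07 FPKM untreated.

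Ndufs5 gave no usable level. It is an accessory subunit on the intermembrane side, and its FPKM was 20.6, 0.12 and 42.4 with GM-CSF and 1.63, 0.068 and 0.009 untreated. It passed the filter only through 2 GM-CSF libraries, and without GM-CSF replicate 2 it was called higher. Values so close to 0 in a gene of the basic enzyme can be a failed estimate in the deposited files, so its interval, -0.30 to 5.99 on the log2 scale, is given with no fold.

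The complex I assembly factors held 1 fall among 6 tested. Ndufaf5, which hydroxylates an arginine of Ndufs7 during assembly, had 1.503, 1.676 and 1.684 FPKM with GM-CSF and 2.64, 2.67 and 2.66 FPKM untreated. The libraries within each group were close and the groups separate (log2 fold change -0.48, SE 0.08, adjusted p = 0.00597). The gene is low, so this fold is understated. Ndufaf3 averaged 8.04 FPKM with GM-CSF and 7.49 FPKM untreated, and Ndufaf6, the lowest tested, 1.55 FPKM with GM-CSF and 1.75 FPKM untreated. Ndufaf4 lay just outside the filter at 0.955, 0.571 and 0.935 FPKM with GM-CSF and 0.670, 0.862 and 0.882 FPKM untreated.

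Atp5sl carries an ATP synthase name but is not a subunit of it; now called Dmac2, it acts in building the membrane arm of complex I. It had 7.60, 6.005 and 7.39 FPKM with GM-CSF and 9.90, 10.6 and 10.1 FPKM untreated. The groups were separate and the log2 fold change was -0.49 (SE 0.09, adjusted p = 0.00990). It was the 1 lower gene among the 16 tested under Atp5 names, so 0 of the 15 that encode ATP synthase subunits passed the limma test in either direction. At an unadjusted p under 0.05 the subunit Atp5c1, the rotating shaft, was lower at 58.3, 60.9 and 62.95 FPKM with GM-CSF against 66.4, 66.6 and 76.8 FPKM untreated (-0.20, adjusted p = 0.0858). The related Atp5s was under the filter, at 0.473, 0.445 and 0.685 FPKM with GM-CSF and 0.747, 1.41 and 0.980 FPKM untreated.

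Among the ATP synthase subunits several intervals were narrow. Atp5b, the subunit that makes ATP, had 214.7, 217.1 and 220.2 FPKM with GM-CSF and 226.9, 211.3 and 223.9 FPKM untreated (interval -0.12 to 0.08). The groups overlapped. Atp5k, a membrane subunit and the most abundant of the complex, averaged 310.6 FPKM with GM-CSF and 300.1 FPKM untreated (interval -0.10 to 0.20). The c-ring subunit, which is identical in its mature form, is made from 3 genes. Atp5g3 gave the most at 178.3 FPKM with GM-CSF and 184.4 FPKM untreated, Atp5g2 gave 69.0 FPKM with GM-CSF and 74.0 FPKM untreated, and Atp5g1 gave 45.1 FPKM with GM-CSF and 43.6 FPKM untreated. The order of the 3 genes was the same in all 6 libraries, and each gene's groups overlapped.

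Complex II showed 0 calls of 4 by limma, and 1 at an unadjusted p under 0.05. That gene was Sdha, the subunit that oxidises succinate, with 28.1, 28.4 and 31.5 FPKM with GM-CSF and 32.5, 32.1 and 33.4 FPKM untreated. It was lower in all 3 GM-CSF libraries, with a log2 fold change of -0.15 (adjusted p = 0.103, and 0.0340 without GM-CSF replicate 3). The iron-sulphur subunit Sdhb gave -0.05 (adjusted p = 0.650), and the membrane anchors Sdhc and Sdhd gave 0.13 (0.244) and 0.06 (0.405).

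Complex III had 1 fall among 8. Uqcrh, the hinge protein beside cytochrome c1, had 170.7, 171.2 and 155.9 FPKM with GM-CSF and 191.2, 188.6 and 190.9 FPKM untreated. The groups were separate (log2 fold change -0.20, SE 0.05, adjusted p = 0.0262). The call was lost in 6 of 17 alternatives, among them each fit without an untreated library (adjusted p of 0.0700 to 0.0758). Uqcrb, another small subunit, had 104.2, 88.6 and 99.8 FPKM with GM-CSF and 115.9, 113.4 and 107.9 FPKM untreated (-0.21, adjusted p = 0.0765). The 5 small subunits summed to 520.9 ± 18.5 FPKM with GM-CSF and 572.3 ± 11.50 FPKM untreated, while Uqcrc1, Uqcrc2 and Uqcrfs1 summed to 136.8 ± 5.03 FPKM with GM-CSF and 137.0 ± 4.14 FPKM untreated (SD, n = 3 each). Uqcrfs1 is the Rieske iron-sulphur protein, at 34.8 FPKM with GM-CSF and 35.2 FPKM untreated. Cycs, the mobile carrier between complexes III and IV, had 30.8, 29.1 and 27.3 FPKM with GM-CSF and 26.9, 27.8 and 27.1 FPKM untreated. Its groups overlapped (0.09, interval -0.04 to 0.22, adjusted p = 0.296).

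**Figure D3:**
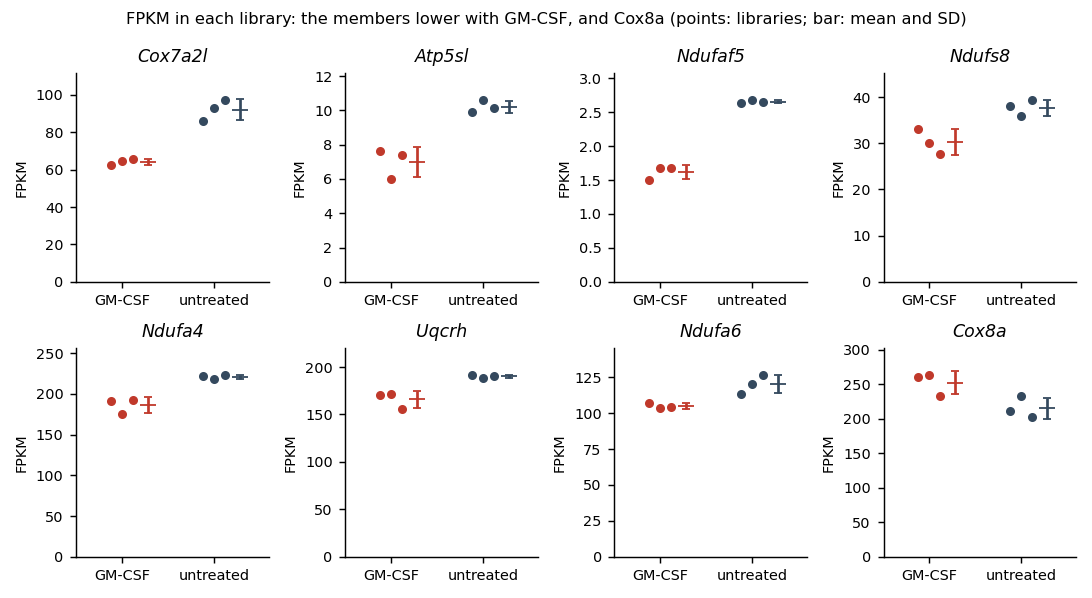
FPKM in each library for the 7 members that fell and for Cox8a, on axes that start at 0, with GM-CSF at the left in red and untreated at the right in blue; the bar is the mean and SD of 3. Cox7a2l (62.3 to 65.6 against 86.1 to 97.0 FPKM) and Ndufaf5 (1.503 to 1.684 against 2.64 to 2.67 FPKM) show clear gaps, and no panel has overlapping groups.

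The summed levels of the larger complexes were close in the 2 cultures. All members together summed to 7136 ± 101 FPKM with GM-CSF and 7301 ± 86.2 FPKM untreated, a ratio of 0.98. Complex I without Ndufs5 summed to 1778 ± 23.8 FPKM with GM-CSF and 1834 ± 63.6 FPKM untreated (with Ndufs5, 1799 ± 6.52 FPKM with GM-CSF and 1834 ± 62.7 FPKM untreated). Complex II summed to 180.0 ± 2.704 FPKM with GM-CSF and 179.0 ± 6.97 FPKM untreated. Complex IV summed to 2271 ± 29.4 FPKM with GM-CSF and 2304 ± 43.8 FPKM untreated, and the Atp5 genes to 2172 ± 68.1 FPKM with GM-CSF and 2217 ± 13.4 FPKM untreated (SD, n = 3 each). Those 4 sums overlapped between the groups in the deposited values. Complex III was the exception in the deposited values: 673.9, 659.9 and 639.3 FPKM with GM-CSF and 708.3, 718.4 and 701.3 FPKM untreated, a ratio of 0.93. That separation depended on scaling, since with median-of-ratios factors the sums of complex III ranged from 648.4 to 700.8 FPKM with GM-CSF and from 668.4 to 702.3 FPKM untreated. With those factors the ratios of complex I, complex IV and the Atp5 genes were 1.03, 1.04 and 1.03. The sums of complex II were then separate upward, at 183.2 to 184.6 FPKM with GM-CSF and 167.1 to 180.3 FPKM untreated, and Cycs was too, with a ratio of 1.12. An exact permutation test of 3 against 3 libraries cannot give a two-sided p below 0.1, so the sums were not tested.

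**Figure D4:**
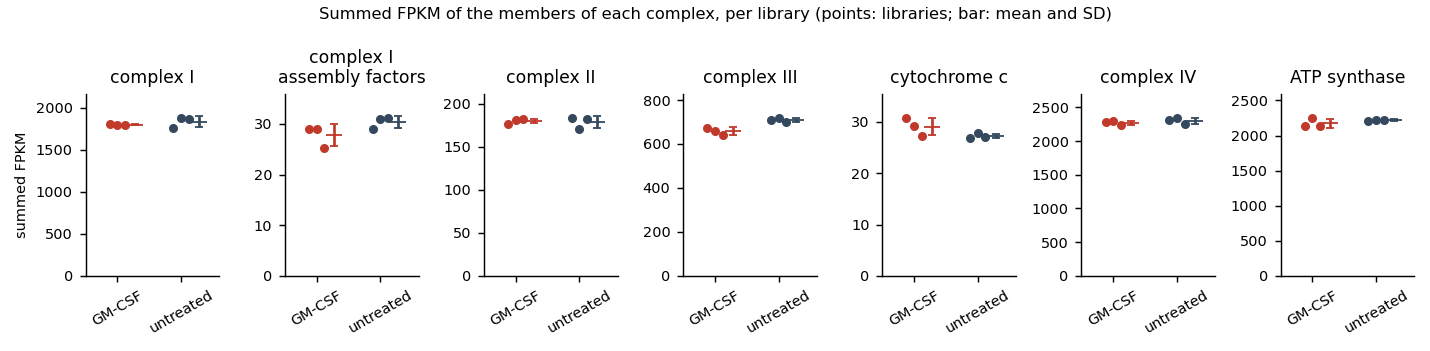
Summed FPKM of the members of each complex in each library, axes from 0, with GM-CSF at the left and untreated at the right of each panel and the bar giving mean and SD of 3. Most panels overlap between the groups, and complex III (639.3 to 673.9 against 701.3 to 718.4 FPKM) is the panel whose groups do not overlap.

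Promoters were read for the members that RefSeq gives one for, because several regulators of these genes are known by their sites. NRF1 and the ETS factor GABP (CCGGAAGT) are known regulators of nuclear respiratory genes, and YY1 (AAGATGGC) binds near many start sites. The NRF1 site was searched as its palindrome of G, C, A and T letters with any base allowed at the fifth place, and all motifs were searched on both strands. A promoter window ran from 250 bases before to 50 after the start, and a gene with several windows counted once. Of 73 tested members with a window, 24.7% held the NRF1 site, against 12.5% of 7946 tested genes and 5.19% of all 27025 genes. The exact NRF1 palindrome, which that search includes and the capitals of Atp5k show, stood in 8.22% of the members. It stood in 2.55% of tested genes and 1.07% of all genes with a window. YY1 letters stood in 15.1% of the members and 6.14% of tested genes, ETS letters in 6.85% and 10.7%, and SP1 letters (GGGGCGGGG) in 16.4% and 24.9%. All 7 members that fell had a window, and 2 of these held an NRF1 site: Ndufa6, and Ndufaf5 with the exact palindrome. Neither of those 2 windows is printed below, so the printed ones do not stand for lower members against the others. A match describes letters only, and no test was made of these shares. Shown are the windows of the 2 lower members Cox7a2l and Uqcrh and of 2 abundant members that did not pass, Cox6a1 and Atp5k, from 250 bases before to 30 after the start, 5′ to 3′ on the minus strand, from RefSeq on GRCm38.p6. Capitals mark an NRF1 match (Cox6a1, at 162 and, read on the other strand, at 117 bases before the start, and Atp5k, at 50) or an ETS match read on the other strand (Uqcrh, at 11). Cox7a2l held none of the letters searched. The windows are chr17:83514304-83514583, chr4:116075041-116075320, chr5:115348929-115349208 and chr5:108434370-108434649.
Cox7a2l: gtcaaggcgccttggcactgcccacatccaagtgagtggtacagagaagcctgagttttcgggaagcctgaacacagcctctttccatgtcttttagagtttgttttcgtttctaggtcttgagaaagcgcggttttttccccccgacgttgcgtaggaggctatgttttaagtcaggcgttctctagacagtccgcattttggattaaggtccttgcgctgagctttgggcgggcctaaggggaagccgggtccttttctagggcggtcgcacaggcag
Uqcrh: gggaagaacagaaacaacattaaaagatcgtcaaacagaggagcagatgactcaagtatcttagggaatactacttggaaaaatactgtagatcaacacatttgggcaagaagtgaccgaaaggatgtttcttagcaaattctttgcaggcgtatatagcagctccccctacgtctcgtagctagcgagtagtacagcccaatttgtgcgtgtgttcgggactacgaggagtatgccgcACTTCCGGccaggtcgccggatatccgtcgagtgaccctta
Cox6a1: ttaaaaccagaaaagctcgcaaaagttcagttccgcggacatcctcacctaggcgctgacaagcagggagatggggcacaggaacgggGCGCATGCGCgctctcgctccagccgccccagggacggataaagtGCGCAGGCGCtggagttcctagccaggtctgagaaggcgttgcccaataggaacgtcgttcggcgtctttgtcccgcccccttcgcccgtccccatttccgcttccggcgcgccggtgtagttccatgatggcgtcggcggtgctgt
Atp5k: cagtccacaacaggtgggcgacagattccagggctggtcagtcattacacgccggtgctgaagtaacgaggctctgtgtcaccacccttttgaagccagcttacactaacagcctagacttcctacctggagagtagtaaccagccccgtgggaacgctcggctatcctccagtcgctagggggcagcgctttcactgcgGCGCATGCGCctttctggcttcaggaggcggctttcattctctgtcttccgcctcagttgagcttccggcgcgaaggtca

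Partners of the respiratory chain outside the naming rule were described from 5 lists. Their calls stand beside 7.68% higher and 14.2% lower over all tested genes (21.9% in all). Assembly factors gave 3 rises (7.5%) and 5 falls (12.5%) among 40 tested. Cox17, the copper chaperone of complex IV, rose most of these: 799.6, 836.9 and 607.7 FPKM with GM-CSF and 370.2, 437.3 and 365.5 FPKM untreated. The groups were well separated, with a log2 fold change of 0.93 (SE 0.13, adjusted p = 0.00404). Cox17 was above every member in level in all 6 libraries. Ttc19, which acts in the upkeep of complex III, had 6.43, 7.34 and 7.60 FPKM with GM-CSF and 4.58, 5.04 and 5.02 FPKM untreated (0.46, adjusted p = 0.00770). Sdhaf1, which helps insert iron-sulphur clusters into complex II, fell to 9.80 ± 0.784 FPKM with GM-CSF, against 13.9 ± 1.07 FPKM untreated (-0.47, adjusted p = 0.00783). The other calls were Cox19 higher, and Uqcc3 (listed as AI462493), Cox20, Oxa1l and Surf1 lower. The assembly factors gave 1 fall when untreated replicate 2 was left out, 2 when GM-CSF replicate 1 or untreated replicate 3 was, and 3 when GM-CSF replicate 2 or 3 was.

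Among carriers, porins and the ATPase inhibitor, 4 of 10 tested (40%) fell and 0 rose by limma. At an unadjusted p under 0.05, 0 were higher. Atpif1, the inhibitor that keeps ATP synthase from running backwards, had 228.1, 220.5 and 210.0 FPKM with GM-CSF and 294.0, 310.6 and 314.2 FPKM untreated. The gap was as clear as that of Cox7a2l (log2 fold change -0.48, SE 0.05, adjusted p = 0.000846). Slc25a5, an ADP/ATP carrier, averaged 98.5 ± 7.91 FPKM with GM-CSF and 123.6 ± 3.35 FPKM untreated (-0.33, adjusted p = 0.0131). The phosphate carrier Slc25a3 averaged 84.5 ± 5.76 FPKM with GM-CSF and 99.9 ± 2.95 FPKM untreated (-0.24, adjusted p = 0.0270), a call lost in 6 of 17 alternatives. The porin Vdac2 was the remaining fall. Without untreated replicate 2 there were 2 falls, with Slc25a5 and Slc25a3 no longer past the threshold.

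The pyruvate dehydrogenase and citric acid cycle list gave 3 rises (13.6%) and 4 falls (18.2%) among 22. Pdk3, a kinase that inactivates pyruvate dehydrogenase, had 18.8, 17.0 and 21.7 FPKM with GM-CSF and 7.93, 8.80 and 8.215 FPKM untreated (log2 fold change 1.11, SE 0.09, adjusted p = 0.000412). Pdp1, the phosphatase that opposes such kinases, had 4.12, 5.05 and 5.22 FPKM with GM-CSF and 2.41, 2.00 and 2.46 FPKM untreated (0.81, adjusted p = 0.00269). The Pdp1 call was lost when only the highest transcript of each gene was used (adjusted p = 0.0697). The catalytic subunit Idh3a of the NAD-linked isocitrate dehydrogenase rose to 7.15 FPKM with GM-CSF, against 5.27 FPKM untreated (0.38, adjusted p = 0.0323), a call lost in 7 of 17 alternatives. Its partner subunits Idh3b and Idh3g fell, as did Pdhb and Ogdh.

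Coenzyme Q and electron entry genes gave 4 falls and 0 rises among 17 by limma (23.5% called, against 21.9% of all tested genes). At an unadjusted p under 0.05 there were 8 falls and 0 rises, against 2341 falls and 1136 rises over all 10106 genes. Coq4, needed to make coenzyme Q, averaged 7.04 ± 1.03 FPKM with GM-CSF and 11.2 ± 1.57 FPKM untreated (-0.61, adjusted p = 0.0172). Hccs, which attaches haem to cytochromes c and c1, gave -0.23 and Coq10b -0.25, and these calls were lost in 8 and 12 alternatives. The list gave 1 fall when replicate 2 of either group was left out, and 2 when GM-CSF replicate 1 or untreated replicate 1 or 3 was. Cyc1, the haem subunit of complex III that the naming rule misses, averaged 40.5 FPKM with GM-CSF and 45.0 FPKM untreated (-0.15, adjusted p = 0.0570). Among 14 tested regulators of mitochondrial biogenesis and transcription, Polg, the mitochondrial DNA polymerase, rose and 3 fell (28.6% called). The Polg call was lost in each fit that left out a library. Gabpb1, a partner of the ETS factor GABP, gave -0.19 (adjusted p = 0.0255). Its call was lost with the sign kept in 8 of 17 alternatives, among them the 3 other scalings. In 1 more, its highest transcript alone, the sign reversed (0.54, adjusted p = 0.502). Yy1 gave -0.18 (adjusted p = 0.0227), a call lost in 6 of 17 alternatives with an adjusted p of up to 0.116. Mterf, a mitochondrial transcription terminator with a near copy in the mouse genome, averaged 3.27 FPKM with GM-CSF and 5.02 FPKM untreated (-0.50, adjusted p = 0.00584). The list gave 1 fall without GM-CSF replicate 3, untreated replicate 2 or untreated replicate 3. Nrf1 itself averaged 14.8 FPKM with GM-CSF and 13.3 FPKM untreated (0.14, adjusted p = 0.0902), and the coactivators Ppargc1a and Ppargc1b were under 0.13 FPKM in every library.

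**Figure D5:**
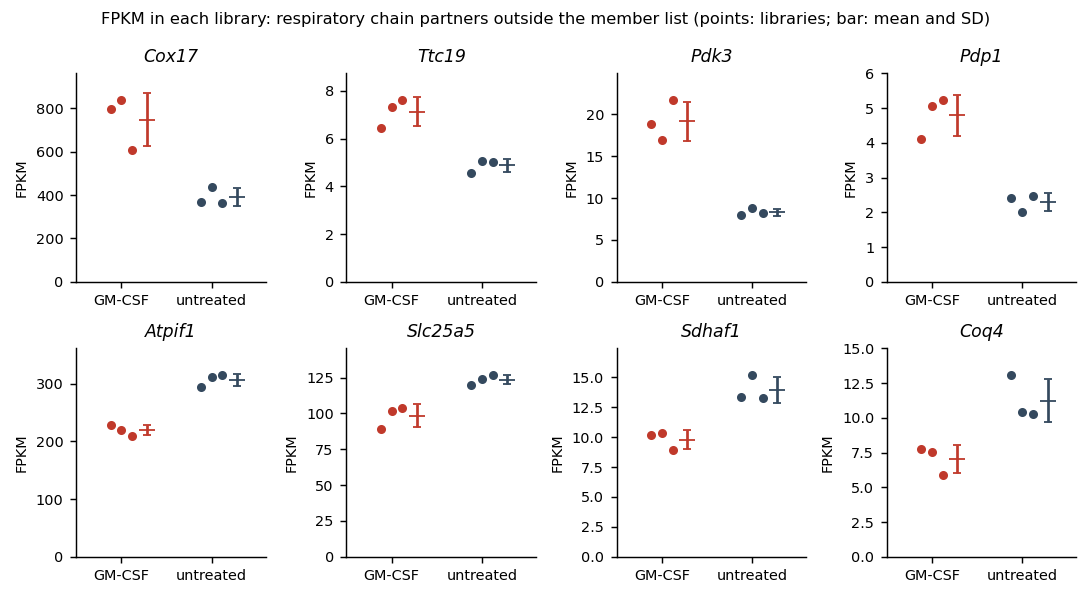
FPKM in each library for 8 partner genes outside the naming rule, axes from 0, with GM-CSF at the left in red and untreated at the right in blue; the bar is the mean and SD of 3. The upper row (Cox17, Ttc19, Pdk3, Pdp1) lies higher with GM-CSF and the lower row (Atpif1, Slc25a5, Sdhaf1, Coq4) lies lower, with no overlap in any panel.

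Counts in 2 other gene families of the same libraries are set beside the members' without a test of the difference. Over all tested genes 14.2% fell and 7.68% rose by limma. Of 76 tested mitochondrial ribosomal protein genes 4 (5.26%) fell and 0 rose by limma (9 and 1 at an unadjusted p under 0.05). Their median log2 fold change was -0.07. Of 87 tested genes with cytosolic ribosomal protein symbols 52 (59.8%) fell and 0 rose (68 and 1 unadjusted), with a median of -0.23. These symbols include pseudogenes, such as Rps19-ps3, which fell, and also Rps19bp1, which did not pass. Across the members, without Ndufs5, the log2 fold change had a Spearman rho of 0.20 with the level and of -0.05 with transcript length, over 84 genes that share their libraries; this is a description with no p.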

How the data were processed

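Per the labels' protocols, Trizol was used to extract the RNA of the 6 cultures and the Illumina TruSeq Stranded mRNA kit to prepare libraries. The sources used here do not give the isolation of the cells, or the handling of reads that fit several gene copies or either strand; many respiratory genes have near-identical processed copies, so their levels carry that uncertainty. Cufflinks, TopHat, TopHat2, bcl2fastq 1.8.4 and the build mm10 are named in the submitters' processing notes, with no order or settings. The authors deposited FPKM per transcript, per the file headers. The deposited coverage signal was used only to estimate depth. No read counts are in the files used, so no count test was run. There were 0 other columns of sample values.

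FPKM were summed per symbol; the 8 members with several transcripts were summed likewise, and all 93 members matched a RefSeq gene. Those averaging 1 FPKM or more were tested on log2(FPKM + 1) with limma 3.58.1 in R 4.3.3 (empirical Bayes with a trend, two-sided, 3 libraries against 3, Benjamini-Hochberg, threshold 0.05), checked on simulated data. Members and lists were chosen with earlier results of these data known. Of 190 list entries 176 matched by symbol and 12 by synonym, and 2 had no match. Genes named are, per complex, those that passed (at most 6), the most and least abundant tested, a fixed set of paralogs, Cycs and the Sdh genes, and per list up to 3 with the largest change. Others named (such as Ndufb6, Uqcrb, Atp5c1, Ndufv1, Atp5b, Ndufv3, Polg and Cyc1) were chosen after their values were seen. The alternatives were another pseudocount (0.1), no filter or one of 5 FPKM, 3 other scalings, sums per locus, transcripts of at least 200 nt, the highest transcript, limma without the trend, a replicate block and leaving out each library.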

Additional observations from a re-analysis of the deposited data

How the results depend on the processing

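Precision rests on 3 libraries a group, on depths of 0.820 to 1.32 gigabases and on FPKM as deposited; where a value moved, the cause was not tested. The members' median log2 fold change of -0.05 became 0.0221 with median-of-ratios factors, -0.0291 with quantile normalization and -0.00345 with libraries rescaled to the same FPKM sum, and ran from -0.06 to -0.03 with 1 library left out. Higher members, 0 as reported, numbered 2 with median-of-ratios factors (Cox8a, Ndufb6), 1 with no filter (Cox4i2), 1 each with quantile normalization, the same FPKM sum and transcripts of at least 200 nt (Cox8a), and 0 to 2 with 1 library left out. Lower members, 7 as reported, numbered 3 with median-of-ratios factors and 3 with the same FPKM sum (Atp5sl, Cox7a2l and Ndufaf5 in both), and 4 to 7 with 1 library left out. The share of higher genes among all calls, 35.1% as reported, was 52.7% (1078 higher, 968 lower), 46.1% (950 and 1111) and 46.4% (791 and 913) under the 3 scalings in the order above. All-gene calls ran from 1510 to 1776 with 1 library left out, against 2212.

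For complex I, 2 calls became 0 with no filter and 0 with the same FPKM sum, 1 with median-of-ratios factors (Ndufb6, higher, with both falls lost), 1 each with quantile normalization and limma without the trend, and 0 to 2 with 1 library left out. The assembly factors' 1 became 0 with a filter of 5 FPKM. Complex II had 0 to 1 with 1 library left out. Complex III's 1 became 0 with median-of-ratios factors, the same FPKM sum and limma without the trend, 2 with transcripts of at least 200 nt, and 0 to 1 with 1 library left out. Gabpb1 was the 1 reversal among 43 named genes tested, at 0.54 (adjusted p = 0.502) with the highest transcript for its gene; of the 22 that passed, 10 did so under every alternative in which they were tested.

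Same-numbered cultures did not deviate together (r = -0.03, 0.05 and -0.02), so the numbers are not taken as pairs. With the number as a replicate block, 5 members were lower and 1 higher (Cox8a), complex I had 0 calls, and all genes gave 723 higher and 1273 lower.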
